A study of Mus musculus with 2 samples.

Results

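In single-nucleus RNA sequencing of the mouse brainstem, 1318 of 18281 nuclei carried the deposited cell type label astro, and 256 of these were placed by the deposited clustering outside subcluster 4, the subcluster that holds the other 1062. These 256 nuclei are described here. They were selected with the deposited label and the deposited subcluster number alone, without reference to the level of any one gene. They fell into exactly 2 subclusters, 142 nuclei in subcluster 19 and 114 in subcluster 26, and neither held a nucleus with another label.

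Astrocytes take up glutamate and potassium released by neurons, supply lactate, and line vessels and the brain surface with water-channel-bearing endfeet. In grey matter they are classically protoplasmic, with bushy processes around synapses and high levels of glutamate transporters, whereas in white matter and beneath the pia they are fibrous, with long processes rich in the intermediate filament GFAP. Bergmann glia are the radial astrocytes of the cerebellum, which carry AMPA receptors, and reactive astrocytes are those altered by injury or inflammation, which also raise GFAP. Oligodendrocytes are a separate lineage that wraps axons in myelin.

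Nuclei came from 1 WT and 1 HET female mouse at post-natal day 41, 9259 and 9022 nuclei respectively, with no treatment in either group. HET mice carry the *Scn1a* A1783V knock-in allele in 1 of the gene's copies, a model of Dravet syndrome, and were obtained by crossing males with the conditional allele to females expressing Sox2-Cre, which is active throughout the embryo, so that every cell type carries the allele. WT mice were from the same C57Bl6 background. Because there was 1 library per genotype, no difference between genotypes has a replicate check and no p-value is given.

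Values are unique molecular identifiers (UMIs, counts of captured RNA molecules) summed over the nuclei of a subcluster in a library and expressed as CPM, the counts per 1000000 of those UMIs. Brackets give 95% exact intervals, which cover counting error only. Genes were compared between subclusters when they had at least 20 UMIs in the astro nuclei of each library, which left 10262 genes, and a gene was counted as higher or lower when it differed at least 2-fold in the same direction in the WT and the HET library. The clustering was made from these same genes, so every comparison of one subcluster with another is a description and not a test. *Scn1a* itself was sparse in these nuclei, with 18 WT and 11 HET UMIs in subcluster 19, 11 and 17 in subcluster 26, and 101 and 145 in subcluster 4 (68.3 and 71.3 CPM). Counts from the 3′ end of transcripts cannot tell the knock-in allele from the WT allele, so they do not check the genotype labels.

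The 256 nuclei made up 22.0% of WT astro nuclei (134 of 609, [18.8, 25.5]) and 17.2% of HET astro nuclei (122 of 709, [14.5, 20.2], Clopper-Pearson), or 1.45% and 1.35% of all nuclei of each library. Subcluster 19 accounted for 12.5% of WT and 9.31% of HET astro nuclei, and subcluster 26 for 9.52% and 7.90%. The shares of astro nuclei were lower in HET for both subclusters, and the counting intervals of their sum overlapped. No cell barcode of these nuclei was shared between the libraries, against 23 shared over all nuclei.

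The separation of the subclusters depended on the clustering resolution in different ways. At the coarsest deposited resolution, 0.1, with 16 clusters, all astro nuclei lay together. At 0.2, with 19 clusters, subcluster 26 already stood alone, whereas subcluster 19 was still merged with subcluster 4 and separated only at 0.8, with 34 clusters. At the finest, 1.5, both remained whole while subcluster 4 was divided. A second deposited label of each nucleus called 134 of the 142 nuclei of subcluster 19 and 103 of the 114 nuclei of subcluster 26 astrocytes. Of the remainder, it called 7 neurons and 1 an oligodendrocyte in subcluster 19, and 9 oligodendrocytes, all of them WT, and 2 neurons in subcluster 26.

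The subclusters differed in depth. Nuclei of subcluster 19 held a median of 2682.5 (WT) and 3071.5 (HET) UMIs, near the 2841 and 3258 of subcluster 4. Nuclei of subcluster 26 held 5099 and 5126.5 UMIs, 1.79 and 1.57 times those of subcluster 4, and 51 of 58 WT and 51 of 56 HET nuclei lay above the subcluster 4 median. The sum of the medians of subcluster 4 and of the oligo cluster, the deposited cluster of oligodendrocytes, was 5579 and 6111.5 UMIs. The deposited doublet score came from a caller that is not named and that was used to remove doublets before deposit. Its medians were 0.267 (WT) and 0.217 (HET) in subcluster 26, 0.220 and 0.144 in subcluster 19, and 0.217 and 0.116 in subcluster 4. They were 0.105 and 0.050 in the oligo cluster, and 0.306 and 0.264 in epend.1, a deposited ependymal cluster, above those of subcluster 26.

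Astrocyte genes were described first with *Slc1a2*, *Slc1a3* and *Gfap*. *Slc1a2*, the main glutamate transporter GLT-1, was at 1092 (WT) and 1082 (HET) CPM in subcluster 19 and at 1336 and 2004 CPM in subcluster 26, below the 2531 and 3573 CPM of subcluster 4 in both libraries. *Slc1a3*, the glutamate transporter GLAST, was at 554 and 1048 CPM in subcluster 19, at 216 and 264 CPM in subcluster 26 and at 411 and 422 CPM in subcluster 4. Both transporters were above their level in the oligo cluster in both subclusters and libraries. The astro label was made from these same data, so this describes the labelled nuclei and does not test the label. Over the list of 26 general astrocyte genes, the summed level was 11601 and 12816 CPM in subcluster 19, 12277 and 14501 in subcluster 26, 22663 and 25702 in subcluster 4, and 1496 and 1398 in the oligo cluster. None of the 26 genes was at 0 in either subcluster.

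*Gfap* (chr11:102887336-102900912 in mm10), which encodes the glial filament protein, set the subclusters apart. In subcluster 19 it reached 1513 CPM in WT (385 UMIs) and 1384 CPM in HET (325 UMIs), 23.6 and 29.7 times the 64.2 and 46.7 CPM of subcluster 4. In subcluster 26 it was at 65.7 and 21.0 CPM, log2 ratios of 0.03 and -1.15 against subcluster 4. At least 1 *Gfap* UMI was found in 73.7% (WT) and 66.7% (HET) of nuclei of subcluster 19, 15.5% and 10.7% of subcluster 26, 57 of 475 and 10.7% of nuclei of subcluster 4, and 4.87% and 4.66% of the oligo cluster, which should lack the gene. *Gfap* was thus detected in most nuclei of subcluster 19, but its UMIs were spread unevenly over them. The 2 highest HET nuclei held 56 of the 325 UMIs, and 2 WT nuclei held 68 and 59 of the 385. Without these 2 WT nuclei the WT level was 1076 CPM.

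**Figure D1:**
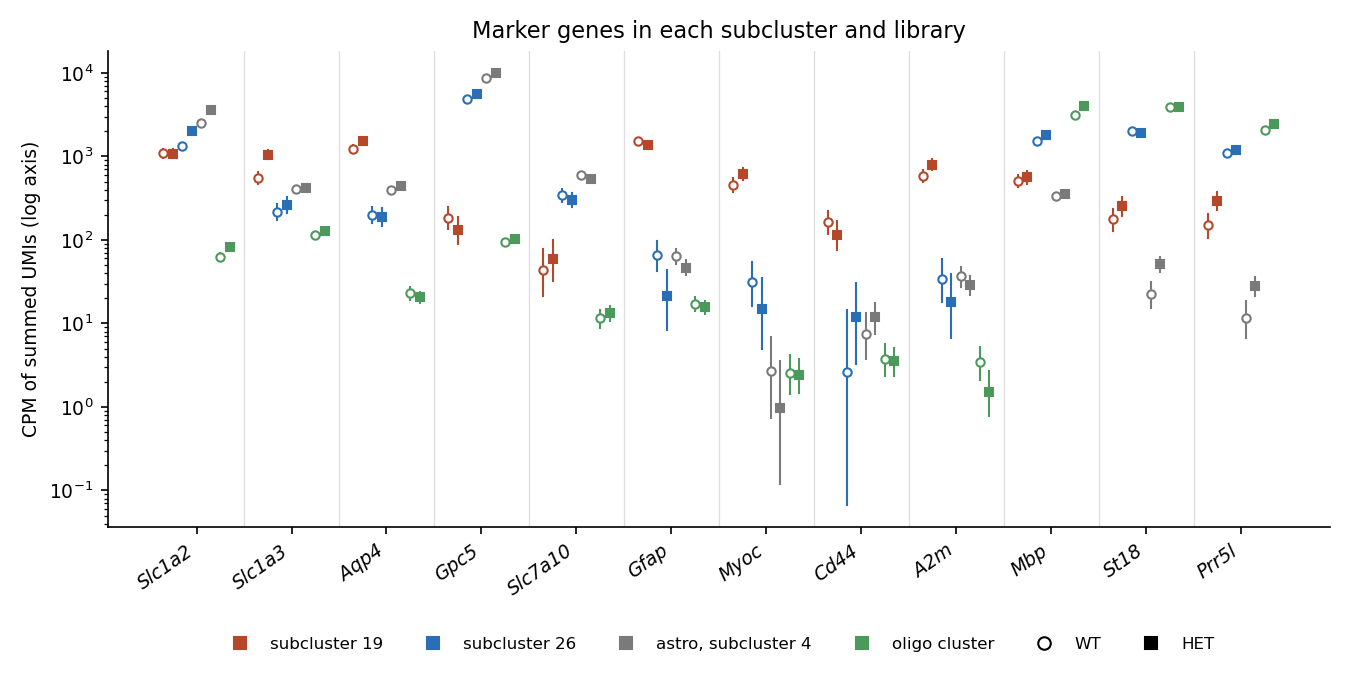
CPM of summed UMIs (log axis) of 12 marker genes in subcluster 19, subcluster 26, the astro nuclei of subcluster 4 and the oligo cluster, with open circles for WT, filled squares for HET and bars for 95% counting intervals. *Gfap*, *Myoc*, *Cd44* and *A2m* are highest in subcluster 19, and *Mbp*, *St18* and *Prr5l* in subcluster 26 lie between subcluster 4 and the oligo cluster.

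Over the 256 nuclei together, 581 genes (5.66% of 10262) were higher and 210 (2.05%) lower than in subcluster 4, with a median log2 ratio over all genes of 0.03. Taken apart, subcluster 19 had 540 higher (5.26%) and 349 lower genes (3.4%), and subcluster 26 had 559 higher (5.45%) and 336 lower genes (3.27%). Few of these were shared. Only 150 genes were higher in both, 27.8% of those of subcluster 19 and 26.8% of those of subcluster 26, and 31 were lower in both. Among the genes with the largest ratios over the 256 nuclei, *Myoc*, *Pdzrn3* and *Sntg2* came from subcluster 19, and *St18*, *Prr5l* and *Tmeff2* from subcluster 26, while *Mboat1*, an acyltransferase of phospholipid metabolism, was high in both (log2 ratio 3.95 and 4.57 in subcluster 19, 4.77 and 3.93 in subcluster 26). *Kalrn*, a guanine nucleotide exchange factor of small GTPases, was low in both, with 10 WT and 16 HET UMIs in subcluster 19, 30 and 23 in subcluster 26 and 298 and 449 in subcluster 4. *Vcam1*, a cell adhesion molecule, and *Mfsd2a*, a transporter of lysophosphatidylcholine, were likewise lower over the 256 nuclei, with log2 ratios of -1.92 and -1.56, and of -1.56 and -1.57.

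**Figure D2:**
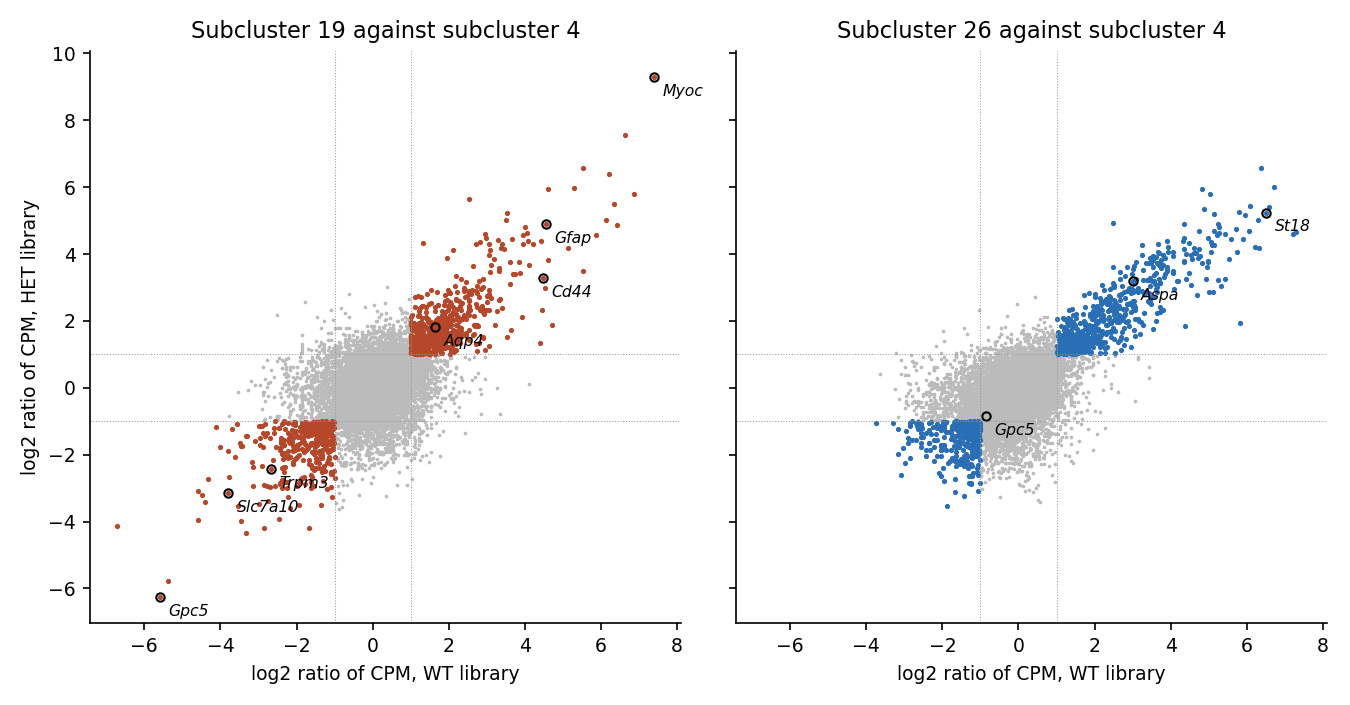
Log2 ratio of CPM against subcluster 4 for 10262 genes, WT library on the x axis and HET library on the y axis, for subcluster 19 (left) and subcluster 26 (right), with coloured points at least 2-fold apart in the same direction in both libraries and dotted lines at a 2-fold ratio. *Myoc* and *Gfap* lie at the upper end and *Gpc5* at the lower end in subcluster 19, and *St18* at the upper end in subcluster 26.

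Subcluster 19 was described by the genes of fibrous astrocytes. All 12 measured genes of the fibrous or white matter list were higher than in subcluster 4, with a median log2 ratio of 3.67, against 5.26% higher and a median of 0.12 over all genes. *Myoc*, encoding myocilin and known from fibrous and subpial astrocytes (chr1:162639155-162649693, overlapped on the opposite strand by *Myocos*), had 116 WT and 145 HET UMIs in subcluster 19 against 4 and 2 in subcluster 4, or 456 and 618 CPM against 2.70 and 0.98. It was found in 36.8% and 33.3% of nuclei of subcluster 19. The few *Myoc* UMIs of subcluster 26, 12 and 5, came from 1 nucleus in each library.

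The filament and matrix genes of the list moved in the same direction. *Cd44*, the hyaluronan receptor, was at 165 and 115 CPM against 7.44 and 11.8. *Vim*, the intermediate filament vimentin, was at 106 and 93.7 CPM against 12.2 and 7.37. *Slc38a1*, a glutamine transporter, was at 782 and 946 CPM against 75.03 and 52.1. *C4b*, complement component 4, was at 318 and 196 CPM against 14.9 and 9.34. For each of these genes the lower of the WT and HET values in subcluster 19 exceeded the higher value in subcluster 4. Over the whole list the summed level was 5447 and 5435 CPM in subcluster 19, 639 and 430 in subcluster 26 and 630.0 and 564 in subcluster 4. By these markers subcluster 19 is called fibrous-astrocyte-like below.

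The protoplasmic or grey matter list was low in the same nuclei, with 7 of 10 genes lower, 0 higher and a median log2 ratio of -1.95. *Gpc5*, a glypican of the cell surface (chr14:115092215-116525179), had 47 WT and 31 HET UMIs in subcluster 19, or 185 and 132 CPM, against 8820 and 10017 CPM in subcluster 4, 47.8 and 75.9 times lower. In subcluster 26 it was at 4908 and 5561 CPM. *Slc7a10*, a transporter of serine and glycine, had log2 ratios of -3.79 and -3.16. *Trpm3*, a cation channel, had ratios of -2.67 and -2.43, and *Kcnd2*, a potassium channel subunit, -2.35 and -2.75. *Gpc5* was thus the gene of this list that separated the fibrous-astrocyte-like nuclei most from subcluster 4.

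General astrocyte genes were not lowered alike in subcluster 19. Of 26, 2 were higher and 5 lower, with a median of -0.56. *Aqp4*, the water channel of astrocyte endfeet, was at 1234 and 1546 CPM against 393 and 437 in subcluster 4 and 199.8 and 189 in subcluster 26. *Glul*, glutamine synthetase, had log2 ratios of -1.13 and -1.85. *Gja1*, connexin 43, had ratios of 0.34 and 0.51, below 2-fold. Among the 21 measured genes of uptake, coupling and ion handling, 2 were higher and 6 lower, with a median of -0.63. The higher ones were *Aqp4* and *Slc7a11*, the cystine and glutamate exchanger, at 652 and 464 CPM against 176 and 157. *Slc6a9*, the glycine transporter GlyT1, was among the lower ones, at 55.0 and 63.9 CPM against 220.0 and 174. Of 20 genes of glycogen, glucose and lactate handling, 2 were higher and none lower, with a median of -0.03; *Slc16a1*, the monocarboxylate transporter MCT1, had log2 ratios of 2.10 and 2.02.

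The genes with the largest ratios in subcluster 19, beside *Myoc* and a pair of predicted genes, included *Pdzrn3*, an E3 ubiquitin ligase, with 51 WT and 48 HET UMIs against 4 and 5 in subcluster 4. *Sntg2*, a syntrophin of the dystrophin complex, had 34 and 29 against 5 and 4. *Aebp1*, a matrix-binding protein, had 59 and 27 against 4 and 8. *Ccdc3* had 21 and 50 against 5 and 7, and *Itgb4*, the laminin receptor subunit integrin beta 4, 20 and 11 against 2 and 4. *Pdzrn3* is overlapped on the opposite strand by a predicted gene, so its count is uncertain to that extent. All of these rested on at most 59 UMIs per library.

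Genes of the Bergmann and reactive lists were also measured in subcluster 19. Of 6 measured Bergmann genes, 3 were higher (median 1.56). *A2m*, alpha-2-macroglobulin, was at 586 and 801 CPM against 36.5 and 28.5, and was found in 65.8% and 74.2% of nuclei. *Hopx*, a homeodomain protein of radial glia, was at 138 and 55.4 CPM against 33.8 and 12.3. *Gdf10*, a defining gene of Bergmann glia, had 2 WT and 4 HET UMIs in the whole subcluster. Of the general reactive list, 4 genes were abundant enough to be compared, *Gfap*, *Vim*, *Cd44* and *Cp*, and all 4 were higher (median 3.62); 3 of these also belong to the fibrous list. *Serpina3n*, a defining gene of reactive astrocytes, had 6 and 3 UMIs in subcluster 19. *C3*, complement component 3, which is used as a marker of a neurotoxic reactive state, had 13 and 27 UMIs in subcluster 19 against 1 and 0 in subcluster 4. *Gdf10* and *Serpina3n* thus had at most 6 UMIs per library, and no name was given from either list. Since 3 of the 4 higher reactive genes are also fibrous genes, these values do not set a fibrous apart from a reactive state.

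Regional and other cell type genes completed the account of subcluster 19. Of 11 regional transcription factors measured, 3 were higher and none lower. *Hoxd3* and *Hoxc4*, which are expressed in caudal hindbrain and spinal cord, had log2 ratios of 2.28 and 2.61, and of 1.00 and 1.06, and *Zic1*, a dorsal neural tube factor, 1.91 and 1.81. The oligodendrocyte list had 2 higher and 1 lower of 18 genes (median 0.53), the higher ones being *St18* and *Prr5l*, and 40 of the 60 HET UMIs of *St18* came from 1 nucleus. The oligodendrocyte precursor list had 4 of 7 genes higher (median 1.46), but its defining gene *Pdgfra* had 4 WT and 0 HET UMIs, and 64 of the 117 WT UMIs of *Tnr*, a tenascin, came from 1 nucleus. Of 4 measured fibroblast genes, 2 were higher and none lower (median 0.69). *Bnc2*, a zinc finger factor of this list, had 20 and 23 UMIs against 7 and 8, with log2 ratios of 4.05 and 4.64, and *Col1a2*, a collagen chain gene, had ratios of 1.15 and 1.72, while *Dcn*, a defining fibroblast collagen-binding proteoglycan, had 2 and 2. None of the 14 measured neuronal genes was higher or lower (median 0.14), and 0 of 8 microglial genes was higher and 1 lower (median 0.09).

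Subcluster 26 was led by genes of oligodendrocytes. Of the 18 genes of the oligodendrocyte list, 14 were higher than in subcluster 4 and none lower, with a median log2 ratio of 2.41, against 5.45% higher and a median of -0.10 over all genes. *St18* (chr1:6487231-6860940), a zinc finger factor abundant in oligodendrocytes, had 775 WT and 644 HET UMIs, or 2037 and 1935 CPM, against 22.3 and 51.1 CPM in subcluster 4. *Prr5l*, a partner of the kinase complex mTORC2 (overlapped on the opposite strand by *Gm13905*), was at 1088 and 1196 CPM against 11.5 and 28.0. *Mbp*, myelin basic protein, had log2 ratios of 2.20 and 2.34, and *Mog* and *Mag*, glycoproteins of the myelin sheath, 3.13 and 2.87, and 3.03 and 2.61. Each of these lay between its level in subcluster 4 and its level in the oligo cluster.

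Astrocyte genes were present in these nuclei with ratios mostly below 0. The general list had a median log2 ratio of -0.94 with 0 higher and 3 lower of 26, and the protoplasmic list -0.82 with 1 higher and 0 lower of 10. The higher one was *Grm3*, a metabotropic glutamate receptor gene, at 726 and 871 CPM against 312 and 408, and at 864 and 1208 in the oligo cluster. The fibrous list had a median of -0.45 with 2 higher and 1 lower of 12, so the pattern of subcluster 19 was not seen. *Slc12a2*, the chloride importer NKCC1, was the 1 higher gene of 21 in uptake, coupling and ion handling, at 260.3 and 309 CPM against 50.0 and 53.1, and at 566 and 567 in the oligo cluster. The summed oligodendrocyte list was at 12425 and 11828 CPM, 2474 and 2399 in subcluster 4 and 22875 and 24603 in the oligo cluster. Subcluster 26 was therefore left without a cell type name. Without the tenth of astro nuclei with the highest doublet scores, which kept 7 of its 58 WT and 37 of its 56 HET nuclei, 358 genes were higher and 61 lower.

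The overlap with the oligo cluster extended beyond the list. Of the 559 genes higher in subcluster 26, 537 (96.1%) were also at least 2-fold higher in the oligo cluster than in subcluster 4, as were 8.82% of all 10262 genes and 33.0% of the 540 genes higher in subcluster 19. Of the 336 genes lower in subcluster 26, 169 (50.3%) were also lower in the oligo cluster, against 17.5% of all genes and 75.4% of the 349 genes lower in subcluster 19.

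Each subcluster was also described as a weighted sum of 2 profiles, that of the subcluster 4 astro nuclei and that of the oligo cluster of the same library, with 1 weight fitted. For subcluster 26 the oligo profile took 51.5% (WT) and 47.4% (HET) of the weight. The correlation across genes of log values with the profile rose from 0.638 and 0.685 for the subcluster 4 profile alone to 0.9499 and 0.963 for the sum, where genes are not independent replicates. The share of genes at least 2-fold from the profile fell from 18.6% and 19.1% to 1.31% and 0.756%. Of 2729 genes, 1 predicted gene lay at least 2-fold above the sum in both libraries and 0 below. The summed profile therefore left almost no gene of subcluster 26 apart.

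For subcluster 19 the same sum gave a weight of 15.8% and 16.6%, and the correlation changed only from 0.766 and 0.749 to 0.781 and 0.760. Of 1873 genes under the same minimum, 161 (8.60%) lay above the sum in both libraries and 42 below. Adding the oligo profile thus changed the description of subcluster 19 little.

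The mixture was present in single nuclei. In subcluster 26 the weight of the oligo profile ran from 30.8% to 72.7% in WT (median 48.2%) and from 32.0% to 73.3% in HET (median 44.4%), so that all 114 nuclei lay between 20% and 80%. In subcluster 19 the medians were 12.1% and 11.3%, and 15 of 76 WT and 7 of 66 HET nuclei lay in that range. In subcluster 4, whose nuclei make one of the profiles, 1 of 475 and 3 of 587 did, and in a fixed sample of the oligo cluster, the source of the other, 2 of 177 and 4 of 239. At least 5 UMIs of *Slc1a2*, *Slc1a3* and *Gpc5* together with at least 5 of *St18*, *Prr5l*, *Mobp* and *Mbp* were found in 57 of 58 WT and 55 of 56 HET nuclei of subcluster 26. This held for 26 of 475 and 57 of 587 nuclei of subcluster 4, for 8 of 76 and 10 of 66 of subcluster 19, and for 1.30% and 1.76% of the oligo cluster. With every nucleus thinned to 1000 UMIs, at least 1 UMI of each of these sets was found in 97.2% and 97.0% of nuclei of subcluster 26, 32.9% and 40.4% of subcluster 4, 31.9% and 41.7% of subcluster 19 and 19.8% and 24.9% of the oligo cluster. These shares depended on the genes used, and the small sets were chosen after their values were seen. With the whole general astrocyte and oligodendrocyte lists, at least 5 UMIs of each were found in 58 of 58 and 56 of 56 nuclei of subcluster 26, and in 78.9% and 85.0% of subcluster 4, 81.6% and 83.3% of subcluster 19 and 40.4% and 40.7% of the oligo cluster. The part that barcodes with more than 1 nucleus have in subcluster 26 was not tested; the UMI counts and doublet scores that go with it are those given above.

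**Figure D3:**
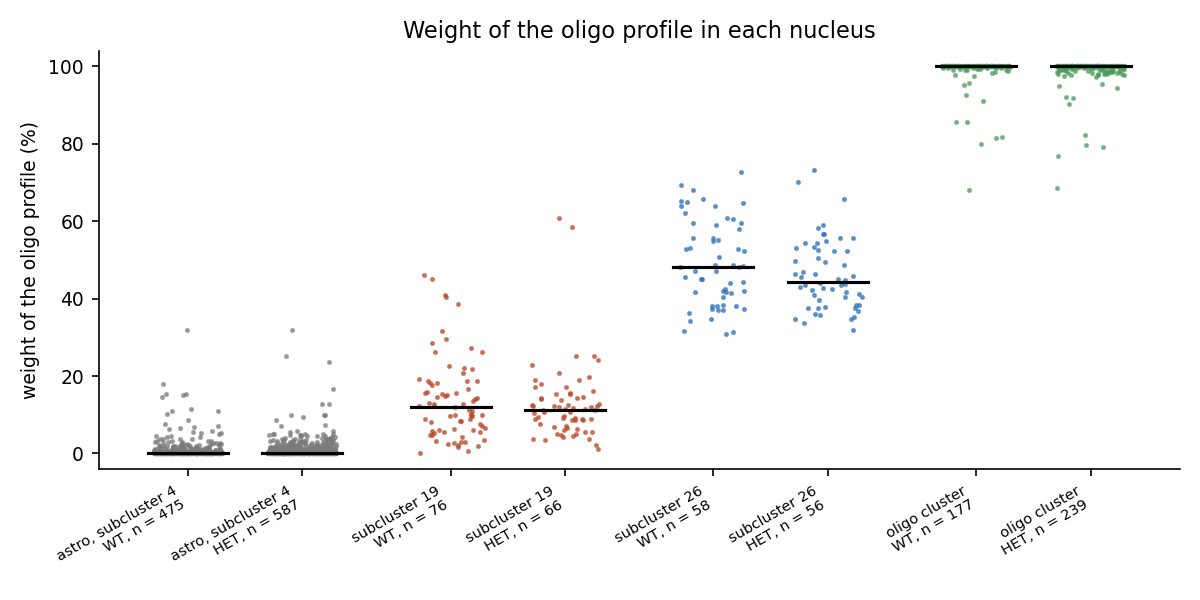
Weight of the oligo profile (%) in each nucleus, with a horizontal line at the median, for the astro nuclei of subcluster 4, subclusters 19 and 26 and a fixed sample of nuclei of the oligo cluster, by library. All nuclei of subcluster 26 lie between 30.8% and 73.3%, between the subcluster 4 nuclei near the bottom and the oligo nuclei near the top.

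HET was then compared with WT in the 256 nuclei. Genes with at least 20 UMIs over both libraries were used, 8560 in all, and a gene was counted when it differed at least 2-fold. Higher in HET were 289 genes (3.38%) and lower 627 (7.32%), with a median log2 ratio of -0.08. In subcluster 19 alone 220 of 4900 genes were higher (4.49%) and 404 lower (8.24%), and in subcluster 26 alone 230 of 5889 were higher (3.91%) and 464 lower (7.88%). In subcluster 4, 392 of 12027 genes were higher (3.26%) and 663 lower (5.51%). Lower genes thus outnumbered higher ones in each set, and the differences between sets were not tested. Without the tenth of astro nuclei with the highest doublet scores, which kept 57 of 134 WT and 95 of 122 HET nuclei, 466 genes were higher in HET. Of the nuclei kept, 50 WT and 58 HET were of subcluster 19, and 7 WT and 37 HET of subcluster 26. HET/WT values under this setting thus compare unequal mixes of the subclusters, and the part of that mix was not tested.

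The astrocyte lists were compared between the genotypes beside all 8560 genes, of which 3.38% were at least 2-fold higher and 7.32% lower in HET. With so few genes in each list, counts near 0 do not set the lists apart from these shares. None of the 26 general genes was 2-fold higher or lower over the 256 nuclei (median 0.10), while 1 was higher and 2 lower in subcluster 26 alone. Without the nuclei of highest doublet score the median over the remaining nuclei, with their unequal mix of subclusters, was -0.30. None of 21 genes of uptake, coupling and ion handling (median 0.08) was 2-fold apart, nor any of 16 genes of glycogen, glucose and lactate handling (median 0.03). The fibrous list had 0 higher and 1 lower of 12 with a median of -0.19, and the protoplasmic list 0 and 0 of 9 with a median of 0.24. *Gfap* had 385 WT and 325 HET UMIs in subcluster 19, a log2 HET/WT ratio of -0.13 [-0.35, 0.09], which turned to 0.36 [0.12, 0.60] without the 2 WT nuclei with most *Gfap* UMIs and to 0.17 [-0.09, 0.42] without the 2 highest nuclei of each library. *Slc1a2* had a ratio of -0.01 [-0.27, 0.24] in subcluster 19 and of 0.59 [0.42, 0.75] in subcluster 26, beside 0.50 in subcluster 4. *Slc1a3* was at 554 CPM in WT and 1048 in HET in subcluster 19, a ratio of 0.92 [0.61, 1.23], beside 0.29 [-0.16, 0.75] in subcluster 26 and 0.04 in subcluster 4.

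Ribosomal and respiratory genes had HET/WT ratios mostly below 0. Of 77 ribosomal protein genes, 31 were at least 2-fold lower and 73 were below 0, with a median log2 ratio of -0.84, and in subcluster 4 the median was -0.95 with 78 of 79 below 0. Of 77 genes of oxidative phosphorylation, 27 were lower and 72 below 0, with a median of -0.84, beside -0.71 in subcluster 4. *Rpl9* had 123 WT and 34 HET UMIs (-1.69), and *Ndufa11*, a subunit of complex I, had a ratio of -1.70. Of 8 heat shock genes, 2 were lower and 7 below 0 (median -0.83, beside -0.81 in subcluster 4). The deposited ribosomal share of UMIs per nucleus moved with these, with medians of 1.06% in WT and 0.565% in HET for subcluster 19, 0.681% and 0.367% for subcluster 26 and 0.943% and 0.504% for subcluster 4. The part of RNA quality in these ratios was not tested.

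*Ttr*, transthyretin, which is made by the choroid plexus and not by astrocytes, had the smallest HET/WT ratio, with 287 WT and 36 HET UMIs, -2.83 [-3.38, -2.33]. It had nearly the same ratio in subcluster 4 (-3.28), in the oligo cluster (-3.01) and in the neuronal clusters (-3.03). The summed choroid plexus list, in which *Ttr* holds most of the WT UMIs, was at 676 CPM in WT and 192 in HET in subcluster 19, 381 and 153 in subcluster 26, 811 and 186 in subcluster 4 and 797 and 189 in the oligo cluster. A like ratio of *Ttr* was thus measured in every cell type looked at. The other choroid plexus genes with enough UMIs lay above 0 in the 256 nuclei, *Kcnj13*, a potassium channel, with 10 WT and 27 HET UMIs (1.59) and *Htr2c*, a serotonin receptor, with 14 and 24 (0.94), and the median of the 3 genes measured was 0.94. *Prdx5*, a peroxiredoxin, had 45 and 8 UMIs (-2.33, beside -0.81 in subcluster 4). *Olig1*, a transcription factor of the oligodendrocyte lineage, had 41 and 11 (-1.74, beside -0.94).

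The genes highest in HET are given with their level in subcluster 4. *Zbtb16*, a zinc finger repressor responsive to glucocorticoids, had 12 WT and 70 HET UMIs, a log2 ratio of 2.71 [1.81, 3.73], and was also higher in subcluster 4 (1.91), the oligo cluster (1.86) and the neuronal clusters (0.69). *Cadps2*, a protein of vesicle priming, had 12 and 46 UMIs, 2.10 [1.16, 3.15], but 37 of the 43 HET UMIs of subcluster 26 lay in 5 nuclei, and without the nuclei of highest doublet score its ratio was -0.64. *Ust*, a sulfotransferase of matrix polysaccharides, had 36 and 92, 1.52 [0.94, 2.11], with ratios of 2.01 in subcluster 19, 0.80 in subcluster 26 and 0.57 in subcluster 4. *Alk*, a receptor tyrosine kinase, had 32 and 78, 1.45 [0.84, 2.09], beside 0.10 in subcluster 4, and 25 of the 65 HET UMIs of subcluster 19 lay in 1 nucleus. *Mctp1*, a calcium-binding membrane protein, had 19 and 48 UMIs (1.50, beside 1.28 in subcluster 4), and *Agfg1*, a protein of vesicle traffic, 18 and 44 (1.45, beside 0.33). *Zbtb16* and *Mctp1* were thus at least 2-fold higher in subcluster 4 as well, as was *Cadps2* (1.13).

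**Figure D4:**
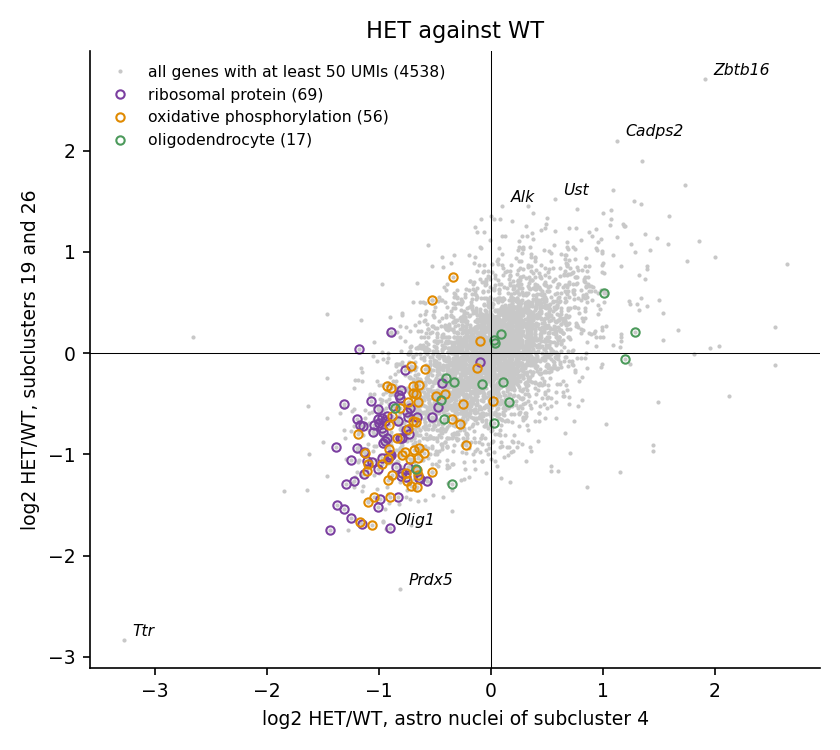
Log2 HET/WT ratio of CPM in subclusters 19 and 26 together (y axis) against that in the astro nuclei of subcluster 4 (x axis), for 4538 genes with at least 50 UMIs, with ribosomal protein, oxidative phosphorylation and oligodendrocyte genes circled. *Ttr* is lowest on both axes and *Zbtb16* high on both, and most ribosomal and respiratory genes lie below 0 on both.

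Marker genes of other cell types were compared between genotypes in the same nuclei. The oligodendrocyte list had 0 higher and 2 lower of 18 (median -0.29, beside -0.02 in subcluster 4), with 2 higher and 1 lower of 16 in subcluster 19 (median 0.04). Without the nuclei of highest doublet score the median turned to 0.62, but 7 WT and 37 HET nuclei of subcluster 26 then remained. These values stand beside an oligo weight in subcluster 26 of 51.5% in WT and 47.4% in HET, whose part in these ratios was not tested. The oligodendrocyte precursor list had 0 higher and 3 lower of 8 (median -0.63), and the microglial list 0 higher and 3 lower of 5 (median -1.03). The neuronal list had 2 higher and 0 lower of 14 over the 256 nuclei (median 0.03) but 0 higher and 3 lower of 11 in subcluster 19 (median -0.56), and 3 higher and 0 lower of 10 in subcluster 26 (median 0.55), where *Rbfox1*, a splicing regulator, had 76 WT and 270 HET UMIs (2.02). *Rbfox1* was also higher in subcluster 4 (1.07).

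In subcluster 19, *Gria4* (chr9:4417896-4796234), an AMPA receptor subunit gene and a member of the Bergmann list, had 52 WT and 193 HET UMIs, a ratio of 2.01 [1.56, 2.48], but in subcluster 26 it had 351 and 233, -0.40 [-0.64, -0.16], and in subcluster 4 its ratio was 0.02. The distribution over nuclei was looked at after this value was seen. In HET, 5 of 66 nuclei held 26 to 44 *Gria4* UMIs each, 158 in all, whereas 0 of 76 WT nuclei held 10 or more and the next highest nucleus held 6. Nuclei with at least 10 *Gria4* UMIs were found in both libraries of the other subclusters, 12 WT and 6 HET in subcluster 26 and 20 and 36 in subcluster 4.

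The 5 nuclei differed from the rest of subcluster 19 in more than *Gria4*. *Gria1*, another AMPA receptor subunit gene, was at 7515 CPM in them, against 1242 in the WT nuclei and 1871 in the other HET nuclei. *Slc1a3* was at 3207 CPM against 554 and 847. *Ust* was at 1353 CPM against 66.8 and 168. They held no UMI of *Gfap*, *Myoc* or *Cd44*, although *Myoc* was also absent from most HET nuclei of the subcluster. The other genes of the fibrous list are not given for these 5 nuclei. Over the whole list, 2 of the 66 HET nuclei of the subcluster held no UMI. *Gdf10* had 3 UMIs in these 5 nuclei, 1 in each of 3, and 2 and 1 in all the other WT and HET nuclei. *A2m* was at 752 CPM, against 586 and 805. *Zic1* was found in 4 of the 5. The 5 nuclei held 2543 to 8143 UMIs each, and the second label called all 5 astrocytes.

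Leaving the 5 nuclei out changed the HET/WT ratios of these genes in subcluster 19. *Gria4* went from 2.01 to -0.33 [-0.99, 0.32], *Slc1a3* from 0.92 to 0.61 [0.29, 0.94], *Gria1* from 0.92 to 0.59 [0.38, 0.81] and *Ust* from 2.01 to 1.33 [0.46, 2.25]. *Gfap* came to 1513 CPM in both libraries. The higher *Gria4* of HET in subcluster 19 thus rested on 5 nuclei of 1 library, and with 1 library per genotype, genotype and library cannot be told apart.

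**Figure D5:**
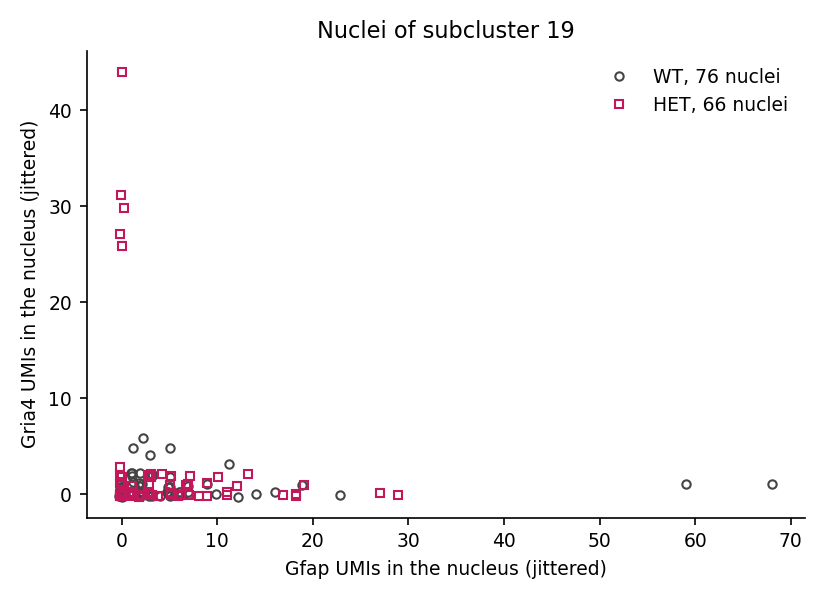
*Gria4* UMIs (y axis) against *Gfap* UMIs (x axis) in each of the 142 nuclei of subcluster 19, WT as circles and HET as squares, with points shifted slightly at random so that they can be told apart. The 5 HET nuclei with 26 to 44 *Gria4* UMIs have no *Gfap* UMI, and the other nuclei hold at most 6 *Gria4* UMIs.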

How the data were processed

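Brainstem nuclei of 1 WT and 1 HET mouse were profiled by the authors with 10x Chromium 3′ v3.1 chemistry, Cell Ranger on mm10, and Seurat 4.1. The deposited values are raw UMI counts of 25556 genes in 18281 nuclei, not normalized, together with the authors' doublet score, percent of UMIs in ribosomal genes, cell type labels and cluster numbers; cells called doublets by the authors had been removed, and no doublet caller was run here. Counts were summed per subcluster and library and scaled to CPM in pandas 2.3.3 and numpy 2.4.6 under Python 3.11.15, intervals were computed in scipy 1.17.1, and plots were drawn in matplotlib 3.10.9. Totals were 254466 and 234783 UMIs (WT, HET) in subcluster 19, 380373 and 332866 in subcluster 26 and 1479371 and 2034862 in subcluster 4. Log2 ratios have exact conditional binomial intervals, a count of 0 was set to 3, the upper limit that it allows, and no ratio was given where both counts were at or under 3. Steps were tested on simulated data. No test between groups was possible with 1 library each, and with no replicates an interval says nothing about the spread between mice. Positions are from GENCODE vM21 (mm10), matched for 24908 genes. The labels do not pair the libraries.

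The nuclei, the 26 gene lists and the rules were chosen with earlier results of these data known. Named genes were *Slc1a2*, *Slc1a3* and *Gfap*; those with the 15 largest and 10 smallest ratios against subcluster 4, and the 8 largest of each subcluster, among genes with at least 50 UMIs; the 10 largest and 10 smallest HET/WT ratios; and up to 4 members of each list by UMIs or ratio, with predicted genes counted but not named. Further list members, *Scn1a* and the genes given for the 5 *Gria4* nuclei were named after their values were seen, as were the small gene sets counted together in single nuclei. Some results are not reported here. Alternatives covered the scaling, the mean over nuclei, UMI minimums, the second label, depth, doublet score and leaving out a subcluster; leaving out nuclei by *Gria4* or *Gfap* and a finer label were chosen after seeing the data.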

Additional observations from a re-analysis of the deposited data

Results flagged for a closer look

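HET/WT ratios were compared between sets of nuclei for 516 genes, and 4 genes had counting intervals clear of 0 in opposite directions. None of these differences was tested, since there is 1 library per genotype. *Gria4* was higher in HET in subcluster 19 (2.01 [1.56, 2.48]) and lower in subcluster 26 (-0.40 [-0.64, -0.16]), a difference of 2.41 on the log2 scale, and without the 5 HET nuclei described above the subcluster 19 ratio was -0.33. *C530044C16Rik*, a predicted gene, was at 0.58 [0.02, 1.14] in subcluster 19 and -2.03 [-4.47, -0.19] in subcluster 26, a difference of 2.61. *Acsbg1*, an acyl-CoA synthetase of astrocytes, was higher in HET in subcluster 19 (33 and 49 UMIs, 0.69 [0.02, 1.37]) and lower in subcluster 4 (-0.21 [-0.36, -0.06]), a difference of 0.89, which was 0.61 for subclusters 19 and 26 together. *Slc38a1* was at 0.27 [0.01, 0.54] over the 256 nuclei and at -0.53 [-0.92, -0.13] in subcluster 4, a difference of 0.80. Apart from *Gria4*, an interval in each pair came within 0.02 of 0.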

How the results depend on the processing

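No paired analysis was possible because each genotype has only replicate number 1. Over 15 settings, 257 of 283 alternative values of 31 main results stayed within set limits and 26 moved. The limits were 1.5 times for a count and the 95% interval of the main value for a list median or a share. For single genes 643 of 651 stayed, 7 moved and 1 reversed. A gene that stayed was only on the same side of a 2-fold ratio, and its value may have changed. The setting that moved most left out the tenth of astro nuclei with the highest doublet scores, which kept 57 WT and 95 HET nuclei. Only 7 of the WT nuclei kept were of subcluster 26, beside 37 HET nuclei, so its HET/WT values compare unequal mixes of the subclusters. Under it, genes higher than in subcluster 4 fell to 327, those of subcluster 26 to 358 higher and 61 lower, and the medians were 0.18 (oligodendrocyte list, subcluster 19) and -0.67 (general list, subcluster 26). Its HET/WT results were 466 genes higher and medians of -0.30 (general) and 0.62 (oligodendrocyte), both of opposite sign to the values above, -1.05 (fibrous), -1.32 (ribosomal), -1.42 (oxidative phosphorylation) and -1.26 (heat shock), *Cadps2* reversed to -0.64, and the cause was not tested. A minimum of 50 UMIs gave 357 higher and 130 lower genes over the 256 nuclei, 290 higher in subcluster 19, 147 lower in subcluster 26, and 78 higher and 171 lower in HET. A minimum of 10 UMIs gave 596 and 1173 in HET. Scaling to the median ratio left 221 genes lower in subcluster 26. The mean over nuclei gave 0.37 (oligodendrocyte list, subcluster 19) and -0.72 (fibrous list, subcluster 26). Without subcluster 19 the oxidative phosphorylation median was -0.61. As a share of all nuclei, the 256 nuclei were 1.45% in WT and 1.35% in HET. Both shares have another denominator and were counted among the 26 as moved without a comparison with the limits. The second label and a minimum of 2000 UMIs per nucleus moved none of the main results. Depth limits single genes: totals of 234783 to 380373 UMIs per subcluster and library leave a gene with 20 UMIs too uncertain to order against its neighbours.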

Other observations

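Gene groups not described above are given as values, with 2-fold counts against subcluster 4 in both libraries. Of 3 measured immediate early genes, 1 was higher in subcluster 19, *Jun*, with log2 ratios of 1.83 and 2.29, and 0 in subcluster 26. Of 77 ribosomal protein genes, 0 were higher or lower in either subcluster, with medians of 0.36 in subcluster 19 and -0.58 in subcluster 26, and of 79 genes of oxidative phosphorylation 0 were higher in either and 9 lower in subcluster 26 (medians 0.17 and -0.59). Of 8 heat shock genes, 0 were higher or lower in either (medians 0.33 and -0.61). Endothelial, pericyte and ependymal lists had 2, 4 and 1 measured genes and 0 higher or lower in either subcluster, and the choroid plexus list 4 and 0. Of 2 measured genes of cerebellar granule cells, 1 was higher in subcluster 19, *Zic1*. Of 4 measured neurotransmitter genes, 0 were higher in either subcluster and 1 was lower in subcluster 26. None of the 8 genes of dividing cells had enough UMIs to be compared. In subcluster 26, 1 of 8 microglial genes was higher, *Siglech* (1.07 and 1.39), and 2 were lower, *C1qb* and *Ctss*. Of the A1 and A2 reactive lists, 1 gene each could be compared; in subcluster 19 the A1 gene was at 0.34 and the A2 gene, higher in both libraries, at 1.36.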
